A study of Mus musculus with 6 samples.

Results

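Immediate early genes are the first genes that a cell transcribes after a stimulus. The members described here are 39 such genes, chosen by name from a list of transcription factors and feedback regulators of this response. They were chosen with earlier results of these data known, so counts of members beside all genes are descriptions and not tests. All 39 were among the 26329 genes of the deposited table, and 36 of them had a mean of at least 1 FPKM (fragments counted on a gene, relative to its length and to all fragments sequenced) over the 6 libraries, as did 12922 genes in all. Each library held RNA of cultured mouse ovary. In 3 libraries the ovaries were cultured with ISRIB dissolved in the solvent DMSO (ISRIB 1, 2 and 3), and in 3 with DMSO alone (Control 1, 2 and 3). ISRIB is a small molecule that acts on the initiation factor eIF2B and counters the integrated stress response. Strain, age, dose, culture time, and whether the replicates were separate cultures are not given in the labels, so p-values measure only the spread between these libraries, which may be technical.

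Transcription of immediate early genes needs no new protein. Kinases of the MAP kinase and calcium or cyclic AMP pathways activate factors already bound at these genes, among them serum response factor with its ETS partners and CREB, and transcripts appear within minutes. Most of these messengers are short-lived, because AU-rich elements recruit decay proteins, and several of the products are phosphatases or repressors that end the response. In the ovary the gonadotropin surge and the EGF-like ligands amphiregulin and epiregulin are known to induce this program in granulosa cells.

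Depth was similar in all libraries, at 34474453 to 38001722 reads worked back from the FPKM. The 39 members took 0.445% of the reads in ISRIB 1, 0.273% in ISRIB 2 and 0.268% in ISRIB 3, against 0.256%, 0.347% and 0.256% in Control 1, 2 and 3. So 1 library of each group, ISRIB 1 and Control 2, held more of these transcripts than the rest, and each value below is given by library for that reason. Ovarian identity was plain in all libraries, with summed levels of 8 oocyte markers between 1038 and 1229 FPKM and of 8 granulosa markers between 396 and 573 FPKM. The groups are bulk tissue, in which fewer cells of a type and less RNA per cell cannot be told apart.

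The promoters of 7 members are shown first, chosen after their values were seen. Nr4a1, Ier3, Btg2, Junb and Fos had the 5 widest ranges between libraries among the 36 tested members. In the window searched, Egr2 and Dusp5 hold a motif that was found in none of those 5. Promoter sequences, from 250 bases before to 50 bases after an annotated start, were those of RefSeq on GRCm38.p6, the build also called mm10. They were found for 31 members, with 41 promoters because some genes have several starts. Fosl1, Arc, Ier2, Egr3, Egr1, Dusp4, Klf10 and Sik1 had no entry. Capitals mark the core of the cyclic AMP response element, TGACG on either strand, and the CArG box that serum response factor binds. The full element TGACGTCA contains this core on both strands. Fos lies at chr12:85473640-85473939 (plus strand), Junb at chr8:84978699-84978998 (minus), Nr4a1 at chr15:101266596-101266895 (plus), Btg2 at chr1:134079106-134079405 (minus), Egr2 at chr10:67537619-67537918 (plus), Dusp5 at chr19:53528895-53529194 (plus) and Ier3 at chr17:35821463-35821762 (plus).
Fos: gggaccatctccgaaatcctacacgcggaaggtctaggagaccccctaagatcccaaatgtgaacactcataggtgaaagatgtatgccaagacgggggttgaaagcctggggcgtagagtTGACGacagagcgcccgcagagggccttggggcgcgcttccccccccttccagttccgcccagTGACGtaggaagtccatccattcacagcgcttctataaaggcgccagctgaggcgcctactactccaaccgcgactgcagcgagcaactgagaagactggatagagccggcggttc
Junb: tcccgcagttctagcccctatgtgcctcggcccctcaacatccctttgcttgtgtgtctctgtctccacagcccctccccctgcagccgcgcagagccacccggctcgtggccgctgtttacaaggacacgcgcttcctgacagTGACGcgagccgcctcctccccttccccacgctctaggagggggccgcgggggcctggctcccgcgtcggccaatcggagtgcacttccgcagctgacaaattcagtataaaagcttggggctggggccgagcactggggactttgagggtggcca
Nr4a1: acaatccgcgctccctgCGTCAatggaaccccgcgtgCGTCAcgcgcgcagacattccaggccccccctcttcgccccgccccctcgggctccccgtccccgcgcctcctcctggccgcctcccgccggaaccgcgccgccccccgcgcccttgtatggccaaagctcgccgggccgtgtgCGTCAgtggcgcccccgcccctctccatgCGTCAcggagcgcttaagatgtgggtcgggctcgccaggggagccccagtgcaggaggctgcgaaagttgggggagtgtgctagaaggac
Btg2: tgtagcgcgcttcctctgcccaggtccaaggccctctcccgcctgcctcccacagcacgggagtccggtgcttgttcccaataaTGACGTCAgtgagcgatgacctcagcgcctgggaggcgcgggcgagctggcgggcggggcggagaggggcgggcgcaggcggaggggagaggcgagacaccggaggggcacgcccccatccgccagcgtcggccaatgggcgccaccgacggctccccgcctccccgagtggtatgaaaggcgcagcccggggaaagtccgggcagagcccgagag
Egr2: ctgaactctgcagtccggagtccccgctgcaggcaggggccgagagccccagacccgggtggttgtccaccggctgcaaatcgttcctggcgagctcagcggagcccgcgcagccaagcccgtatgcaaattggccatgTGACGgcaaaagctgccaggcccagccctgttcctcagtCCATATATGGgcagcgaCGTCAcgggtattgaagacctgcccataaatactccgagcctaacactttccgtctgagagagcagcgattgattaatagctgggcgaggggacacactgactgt
Dusp5: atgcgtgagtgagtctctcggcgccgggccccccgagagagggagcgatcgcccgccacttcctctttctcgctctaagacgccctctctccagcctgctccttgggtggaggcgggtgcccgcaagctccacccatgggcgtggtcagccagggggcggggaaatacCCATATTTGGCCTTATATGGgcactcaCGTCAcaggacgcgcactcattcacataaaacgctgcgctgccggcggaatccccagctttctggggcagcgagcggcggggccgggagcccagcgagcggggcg
Ier3: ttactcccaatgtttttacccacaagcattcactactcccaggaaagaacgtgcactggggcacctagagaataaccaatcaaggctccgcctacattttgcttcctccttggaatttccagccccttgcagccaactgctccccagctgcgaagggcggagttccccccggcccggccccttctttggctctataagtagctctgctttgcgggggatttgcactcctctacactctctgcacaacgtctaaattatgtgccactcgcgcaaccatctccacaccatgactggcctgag

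In Fos the TGACG cores began 129 and 66 bases before the start, and in Junb 106 bases before it. Nr4a1 held 4 of them, the nearest 40 bases before the start, and Btg2 a full element 166 bases before it. Egr2 and Dusp5 held CArG boxes, that of Egr2 at 72 bases and those of Dusp5, 2 in a row, at 82 and 72 bases before the start. Ier3, among the members that varied most, had neither motif in this window. Over all members the TGACG core was in 25 of 41 promoters (61.0%), against 20.8% of the 32851 promoters in the table. These 25 belonged to 18 of the 31 members with a promoter, because some have several starts, in part with overlapping windows. The full element was in 3 member promoters (7.32%), against 1.79%. The CArG box was in 6 (14.6%), against 1.63%, and these belonged to Egr2, Zfp36 and Dusp5 only, since 4 of them are overlapping or neighbouring windows of Egr2. The ETS core CCGGAA was in 12.2% of member promoters and 14.9% of all. The EGR site GCGTGGGCG was in 1 member promoter, that of Maff (2.44%), against 0.612% of all. These are matches of letters and not measured binding, and bases outside the window were not searched.

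The members varied far more between libraries than other genes did. The median member had a range of 0.94 over the 6 libraries on the log2(FPKM + 0.5) scale, against 0.27 for all genes tested. A range over 1 was seen in 16 of 36 members and in 2.36% of all genes. ISRIB 1 gave the highest of the 6 values for 31 of 36 members, where it did so for 17.0% of all genes. For 27 members ISRIB 1 was highest and Control 2 second, an order found in 4.43% of all genes. Control 1 was lowest for 16 members, ISRIB 3 for 10, Control 3 for 7, ISRIB 2 for 2 and Control 2 for 1 (Dusp2).

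**Figure D1:**
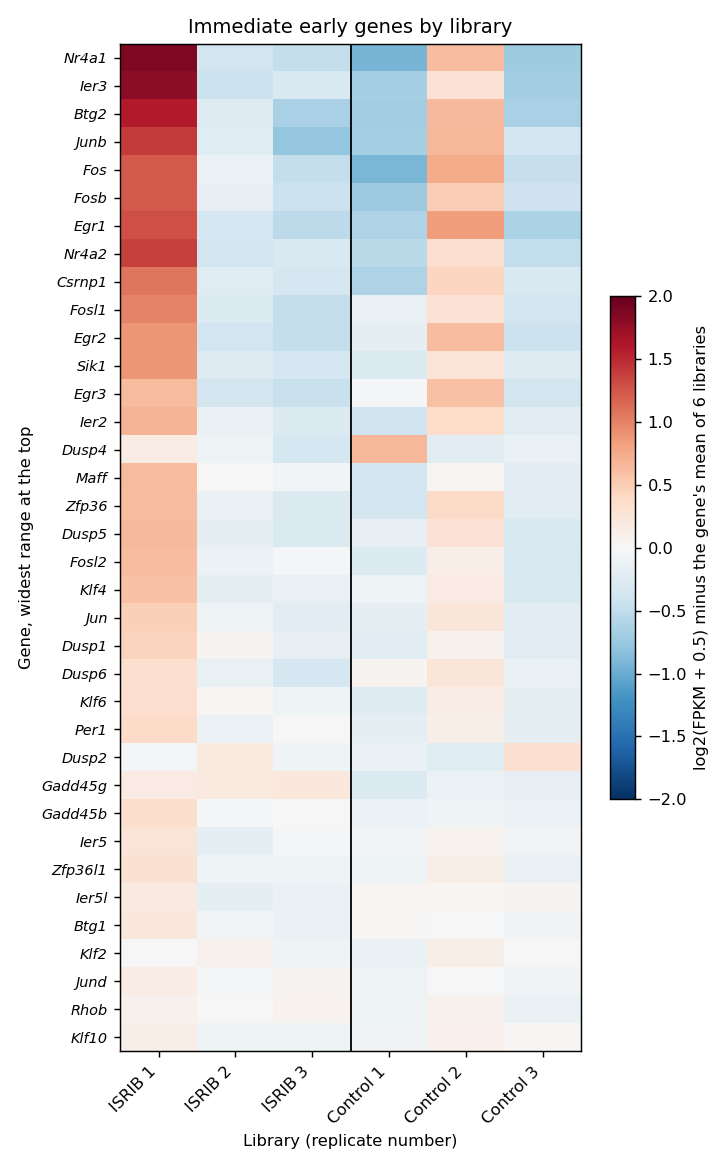
Each cell is the log2(FPKM + 0.5) of 1 of the 36 tested immediate early genes in 1 library minus that gene's mean over the 6 libraries, with the 3 ISRIB libraries left of the 3 Control libraries and the genes in order of their range. ISRIB 1 is red in almost every row and Control 2 in most, while Gadd45g near the lower end is red in all 3 ISRIB libraries.

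Within the ISRIB group, ISRIB 1 lay above both other libraries for 33 of 36 members (33.0% of all genes), and its median deviation from the mean of ISRIB 2 and 3 was 0.68 on the log2 scale, against −0.01 over all genes tested. It exceeded that mean by more than 1 on the log2 scale for 13 members, and for 0.534% of all genes. Egr2, among these 13, passed the filter on its mean only through ISRIB 1, as did some of the other genes counted there. Within the Control group, Control 2 lay above both other libraries for 32 members (32.4% of all genes), with a median deviation of 0.40, against −0.00 over all genes. A deviation over 1 was reached there by 6 members (Fos, Fosb, Junb, Egr1, Nr4a1 and Btg2), and by 0.163% of all genes. No member deviated by less than −1 in either library. These are descriptions of single libraries, with no replicate of their own.

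**Figure D2:**
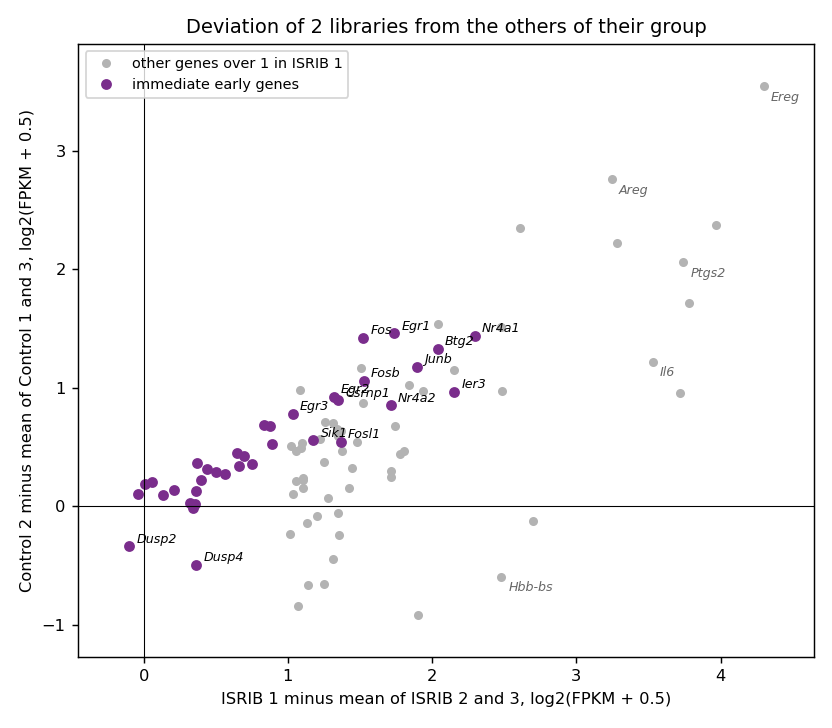
Each point is a gene, placed by how far ISRIB 1 lay from the mean of ISRIB 2 and 3 (horizontal) and Control 2 from the mean of Control 1 and 3 (vertical), both as log2(FPKM + 0.5), with the 36 tested members in purple and the 56 other genes over 1 in ISRIB 1 in grey. The members run upward together from near 0 to Nr4a1 at 2.29 and 1.44, while Dusp4 and Dusp2 lie furthest below 0 in Control 2 and the globin gene Hbb-bs, high in ISRIB 1, is at −0.59 in Control 2.

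The FOS proteins are subunits of the transcription factor AP-1 that bind DNA only as partners of a JUN protein. Fos (chromosome 12, 85473890 to 85477273, plus strand, GRCm38) had 25.6, 9.78 and 7.52 FPKM in ISRIB 1, 2 and 3, against 5.42, 18.1 and 7.59 FPKM in Control 1, 2 and 3. The groups overlapped, with ISRIB 1 and Control 2 as the high libraries. For Fos the log2 fold change was 0.42 (SE 0.509, limma adjusted p = 0.720), and −0.08 without ISRIB 1. Fosb had 6.97, 2.35 and 1.86 FPKM in ISRIB and 1.43, 3.99 and 1.90 FPKM in Control, with the same 2 libraries high. Fosl1, which codes for FRA1, had 8.01, 3.04 and 2.58 FPKM in ISRIB and 3.34, 4.70 and 2.82 FPKM in Control, so that its step in Control 2 (1.53-fold over the mean of the other Control libraries) was smaller than that in ISRIB 1 (2.85-fold). Fosl2, which codes for FRA2 and had the highest level of the family, had 52.3, 31.2 and 33.2 FPKM in ISRIB and 27.9, 37.1 and 27.2 FPKM in Control. Only Control 2 kept the Fosl2 groups from separating, and its log2 fold change was 0.31 (SE 0.197, adjusted p = 0.471).

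The JUN proteins form AP-1 with FOS or with each other. Junb (chromosome 8, 84974484 to 84978718, minus strand) had 96.3, 30.7 and 21.2 FPKM in ISRIB, against 22.9, 57.8 and 27.8 FPKM in Control. ISRIB 1 was 3.71-fold over the mean of its group mates and Control 2 was 2.28-fold over that of its own. Junb had a fold change on the log2 scale of 0.25 (SE 0.543, adjusted p = 0.849), which was −0.38 without ISRIB 1 and −0.01 without Control 1. Jun moved in the same libraries by less, with 56.5, 37.4 and 34.5 FPKM in ISRIB and 35.1, 47.8 and 34.7 FPKM in Control (log2 fold change 0.11, SE 0.191, adjusted p = 0.817). Jund, the JUN gene expressed constantly in most cells, was nearly flat at 116, 102 and 109 FPKM in ISRIB and 97.6, 105 and 99.99 FPKM in Control (log2 fold change 0.11, SE 0.0562, adjusted p = 0.380).

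The EGR genes code for zinc finger factors that bind GC-rich sites. Egr1, the most abundant of them, had 175, 55.3 and 49.2 FPKM in ISRIB, against 46.2, 127 and 45.5 FPKM in Control. Its 4 other libraries lay close together, and the group means were 93.1 ± 70.9 FPKM in ISRIB and 72.9 ± 46.9 FPKM in Control (SD, n = 3 each). Egr1 differed on the log2 scale by 0.28 (SE 0.539, adjusted p = 0.834), −0.30 without ISRIB 1 and 0.76 without Control 2. Egr2 had 2.42, 0.712 and 0.637 FPKM in ISRIB and 0.880, 1.93 and 0.681 FPKM in Control. Egr3 had 2.19, 0.856 and 0.777 FPKM in ISRIB and 1.21, 2.10 and 0.843 FPKM in Control, so that ISRIB 1 and Control 2 were nearly level for this gene. Egr4 stayed under the filter at 0.601, 0.112 and 0.0773 FPKM in ISRIB and 0.147, 0.594 and 0.182 FPKM in Control. Its reads were few, 47 in ISRIB 1 (95% exact Poisson interval 34.5 to 62.5, counting error only) and 49 in Control 2 (36.3 to 64.8), and 6 to 15 in the other libraries.

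The NR4A genes code for nuclear receptors that work without a known ligand and respond to cyclic AMP. Nr4a1 (chromosome 15, 101254269 to 101274795, plus strand) had the widest range of the 36 tested members on the log2(FPKM + 0.5) scale, with 34.3, 6.91 and 6.31 FPKM in ISRIB, against 4.49, 14.1 and 5.30 FPKM in Control. ISRIB 1 was 5.19-fold over its group mates and Control 2 was 2.88-fold over its own. Between the groups Nr4a1 differed on the log2 scale by 0.69 (SE 0.644, adjusted p = 0.633), −0.08 without ISRIB 1 and 1.17 without Control 2. Nr4a2 had 5.23, 1.21 and 1.28 FPKM in ISRIB and 1.01, 2.29 and 1.08 FPKM in Control. Its groups overlapped, and the fold change was 0.46 on the log2 scale (SE 0.461, adjusted p = 0.654). Nr4a3 failed the filter on its mean although it reached 1.80 FPKM in ISRIB 1, with 0.19 and 0.152 FPKM in ISRIB 2 and 3 and 0.124, 0.768 and 0.211 FPKM in Control. ISRIB 1 was 10.5-fold over its group mates here, a larger plain fold than that of Nr4a1. That was 500 reads in ISRIB 1 (457 to 546) and 225 in Control 2 (197 to 256), against 33 to 62 in the other libraries.

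**Figure D3:**
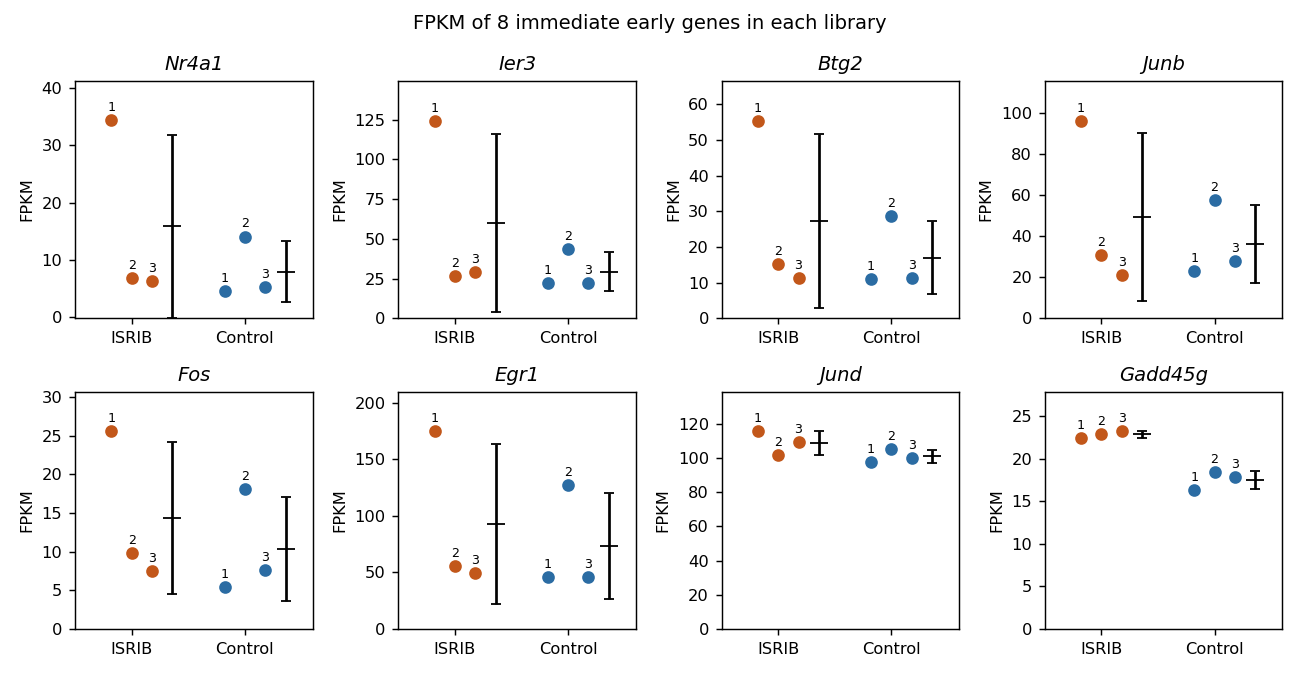
FPKM of 8 members in each library, ISRIB left of Control, with the replicate number above each point and the group mean ± SD (n = 3) in black. Nr4a1, Ier3, Btg2, Junb, Fos and Egr1 are high in ISRIB 1 and Control 2, Jund is nearly flat, and the ISRIB libraries of Gadd45g all lie above the Control libraries.

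Among the other DNA-binding members, Klf2, Klf4, Klf6 and Klf10 are Krüppel-like factors. Klf4 had 3.71, 1.97 and 2.03 FPKM in ISRIB and 2.14, 2.66 and 1.79 FPKM in Control, and Klf6 had 37.7, 30.5 and 27.9 FPKM in ISRIB and 24.9, 33.2 and 26.4 FPKM in Control. Klf2, which responds to blood flow in endothelium, and Klf10 had ranges of only 0.25 and 0.22 on the log2 scale. Maff, a small MAF protein that lacks an activation domain, had 8.65, 5.40 and 5.19 FPKM in ISRIB, against 4.0, 5.54 and 4.57 FPKM in Control. Only Control 2 lay within the ISRIB range of Maff (log2 fold change 0.39, SE 0.188, adjusted p = 0.349). Csrnp1 had 7.40, 2.71 and 2.49 FPKM in ISRIB and 1.97, 4.61 and 2.55 FPKM in Control. The circadian repressor gene Per1 had 8.85, 6.15 and 6.67 FPKM in ISRIB and 5.78, 7.33 and 5.79 FPKM in Control.

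The IER genes split. Ier3 (chromosome 17, 35821684 to 35822923, plus strand), which modulates survival signalling, had 125, 26.4 and 28.8 FPKM in ISRIB, against 22.4, 43.7 and 21.9 FPKM in Control. Here ISRIB 1 stood far above Control 2, whereas for the EGR genes the pair were closer. For Ier3 the log2 fold change was 0.71 (SE 0.560, adjusted p = 0.565), and it was −0.01 without ISRIB 1 and 1.03 without Control 2. Ier2 had 76.4, 43.5 and 39.3 FPKM in ISRIB and 36.1, 61.7 and 40.7 FPKM in Control (log2 fold change 0.17, SE 0.269, adjusted p = 0.788). Ier5 and Ier5l varied little, with ranges of 0.45 and 0.36 on the log2 scale. Ier5l was 1 of 5 members with a negative log2 fold change (−0.09, SE 0.0902, adjusted p = 0.679), at 33.8, 26.2 and 27.0 FPKM in ISRIB and 30.5, 30.4 and 30.9 FPKM in Control.

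Of the members that restrain growth and messenger stability, Btg2, Zfp36 and Zfp36l1 followed the same libraries to different degrees. Btg2 (chromosome 1, 134075170 to 134079120, minus strand), an antiproliferative factor that binds the CCR4-NOT deadenylase, had 55.5, 15.1 and 11.4 FPKM in ISRIB, against 10.9, 28.8 and 11.3 FPKM in Control. The log2 fold change of Btg2 was 0.46 (SE 0.583, adjusted p = 0.736), and −0.22 without ISRIB 1. Its relative Btg1 ranged by only 0.36 on the log2 scale, and Control 2 (46.9 FPKM) did not exceed Control 1 (47.4 FPKM). Zfp36, which codes for the AU-rich element binding protein tristetraprolin, had 33.8, 19.8 and 17.7 FPKM in ISRIB and 16.8, 28.7 and 18.6 FPKM in Control. Zfp36l1, the most abundant member, had 210, 158 and 161 FPKM in ISRIB and 161, 184 and 155 FPKM in Control.

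Among the phosphatases that switch off MAP kinases, Dusp5, specific for ERK in the nucleus, had 21.0, 11.5 and 10.7 FPKM in ISRIB and 11.7, 16.2 and 10.6 FPKM in Control. Dusp1 and Dusp6 had ISRIB 1 and Control 2 as their 2 highest libraries too, with ranges of 0.67 and 0.66 on the log2 scale. Dusp2 and Dusp4 did not. Dusp2 was highest in Control 3 (5.25 FPKM) and lowest in Control 2 (3.40 FPKM), and Dusp4 was at 3.05, 2.53 and 2.01 FPKM in ISRIB and 4.60, 2.24 and 2.42 FPKM in Control. Control 1 alone was high for Dusp4, and its log2 fold change was −0.20 (SE 0.239, adjusted p = 0.717), or 0.08 without Control 1.

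The stress sensor genes Gadd45b and Gadd45g showed no overlap between the groups, with ISRIB above Control, the only 2 of 36 members to do so (10.8% of all genes), and 0 members lay below without overlap (12% of all genes). Gadd45g (chromosome 13, 51846678 to 51848468, plus strand), an activator of the kinase MEKK4, had 22.5, 23.0 and 23.3 FPKM in ISRIB, against 16.4, 18.4 and 17.8 FPKM in Control. It had no step in ISRIB 1, and its means were 22.9 ± 0.382 FPKM in ISRIB and 17.5 ± 1.06 FPKM in Control (SD, n = 3 each). The log2 fold change of Gadd45g was 0.38 (SE 0.0553, 95% interval 0.25 to 0.51), its unadjusted limma p was 1.39e-04 and its adjusted p was 0.0799, so it missed the threshold of 0.05. When single libraries were left out, its log2 fold change was 0.33 to 0.41. With the gene length trend removed it was 0.29 (limma adjusted p = 0.164). Without the filter on low values its limma adjusted p was 0.201. Gadd45b had 18.0, 13.7 and 14.1 FPKM in ISRIB and 12.9, 13.1 and 13.0 FPKM in Control, so that most of its difference (log2 fold change 0.21, SE 0.0959, adjusted p = 0.321) lay in ISRIB 1, and without that library it was 0.09. Sik1, a kinase that restrains CREB coactivators, had 32.4, 14.5 and 13.7 FPKM in ISRIB and 14.1, 21.2 and 14.4 FPKM in Control. Rhob, a short-lived GTPase, was nearly flat with a range of 0.23. Arc, best known from neurons, was under the filter, at 0.808, 0.219 and 0.208 FPKM in ISRIB and 0.253, 0.545 and 0.127 FPKM in Control.

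Across the groups, ISRIB against Control, 0 of 36 members had a limma adjusted p under 0.05, as did 0 of the 12922 genes tested (0%). At an unadjusted p under 0.05 there was 1 member, Gadd45g, against 16.4% of all genes. When voom was run on the whole reads 0 members passed, where 40 genes were higher and 80 lower. The log2 fold change was above 0 for 31 members, where 51.8% of all genes were, and its median was 0.17 against 0.01 over all genes. This direction changed with the libraries that were kept. With ISRIB 1 alone left out, 11 members were higher and 25 lower, with a median of −0.09 (0.006 over all genes). Without Control 2 the counts were 32 and 4 and the median 0.31 (0.004 over all genes). Groups that did not overlap were seen for 3 members below Control without ISRIB 1 (18.2% of all genes), and for 14 above Control without Control 2 (14.6% of all genes). The median SE was 0.207 for the members and 0.0743 for all genes. With ISRIB 1 and Control 2 both left out, 24 members were higher and 12 lower, with a median of 0.09 (0.006 over all genes). In these 2 against 2 libraries 14 members had ISRIB above Control (24.3% of all genes) and 3 had it below (22.4% of all genes). These libraries were left out because of these same genes, so no p is given for those comparisons.

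**Figure D4:**
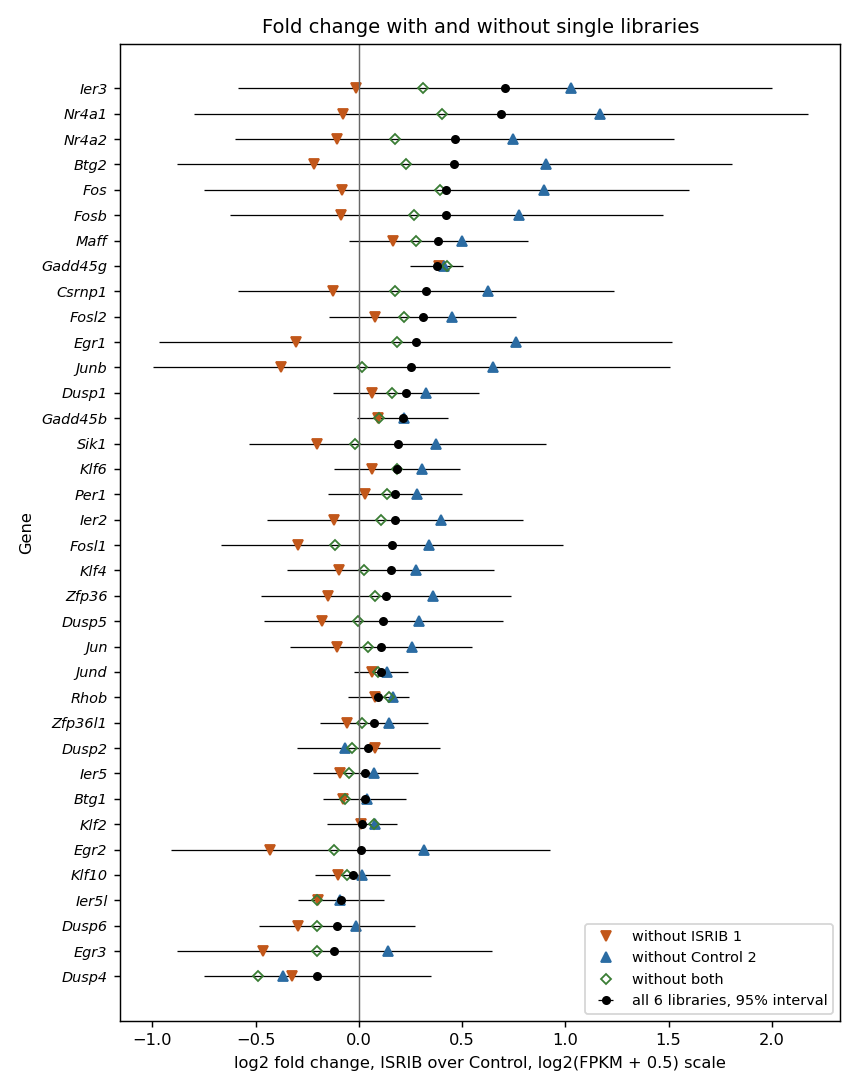
The log2 fold change of each of the 36 tested members, ISRIB over Control on the log2(FPKM + 0.5) scale, with its 95% limma interval from all 6 libraries (black) and its value without ISRIB 1, without Control 2 and without both. Intervals of the genes that are high in ISRIB 1 and Control 2 are wide and their values move to either side of 0, while Gadd45g stays between 0.38 and 0.43 in these settings.

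Most other genes known to be induced early, listed apart from the members, were high in the same libraries. This list too was chosen with earlier results of these data known, so its counts are descriptions. Of 27 tested, 23 were highest in ISRIB 1 (17.0% of all genes). ISRIB 1 was first and Control 2 second for 19 (4.43% of all genes). Ptgs2, among the 27, passed the filter on its mean only through ISRIB 1. Median deviations of the 27 were 0.67 in ISRIB 1 and 0.33 in Control 2. By group 25 were higher and 2 lower, 0 passed the test and the smallest adjusted p was 0.301 (Id3). Atf3, a stress-induced partner of JUN, had 7.38, 4.72 and 4.21 FPKM in ISRIB and 2.88, 6.82 and 4.06 FPKM in Control, and Myc had 39.8, 31.1 and 27.3 FPKM in ISRIB and 24.8, 33.4 and 28.4 FPKM in Control. The serum response factor targets Ccn1 and Ccn2 were 2.0-fold and 1.68-fold over their group mates in ISRIB 1, and 1.96-fold and 2.55-fold in Control 2. Id1, Id2 and Id3, the 3 inhibitors of differentiation on this list, were each lowest of the ISRIB libraries in ISRIB 1. Id1 had 41.6, 45.5 and 56.2 FPKM in ISRIB and 37.6, 44.2 and 48.3 FPKM in Control. Id2 had 30.7, 30.9 and 37.9 FPKM in ISRIB and 31.9, 28.3 and 35.9 FPKM in Control. Id3 was at 125, 139 and 169 FPKM in ISRIB and 99.0, 105 and 140 FPKM in Control.

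The factors that act on these genes were near their group mates in both libraries. The 26 upstream factors and kinases had median deviations of −0.01 in ISRIB 1 and −0.02 in Control 2, and Srf itself had 13.4, 12.9 and 13.5 FPKM in ISRIB and 13.4, 13.5 and 13.9 FPKM in Control. By group 9 were higher and 17 lower, 0 passed, and the ETS factor Elk4 had the smallest adjusted p (0.136). The 8 AP-1 partners had a median of −0.00 in both libraries, with 5 higher and 3 lower by group and 0 called. Among 15 messenger decay partners 11 were higher and 4 lower, 0 passed, and Cnot1, the scaffold of the CCR4-NOT deadenylase, was at 40.8, 39.1 and 36.2 FPKM in ISRIB and 46.7, 50.6 and 50.02 FPKM in Control (log2 fold change −0.34, SE 0.0568, adjusted p = 0.0876). The 10 cytoskeletal targets of serum response factor deviated by 0.02 and −0.01, with 4 higher, 6 lower and 0 called. The 11 further MAP kinase brakes deviated by 0.18 and 0.10, with 5 higher, 6 lower and 0 called, and of them Errfi1, an inhibitor of the EGF receptor, was 2.10-fold over its group mates in ISRIB 1. Heat shock genes deviated by 0.09 and 0.11, with 7 higher, 6 lower and 0 called of 13. The inducible Hspa1a had 7.29, 3.05 and 3.64 FPKM in ISRIB and 2.25, 4.03 and 3.18 FPKM in Control, whereas the constitutive Hspa8 was 1.08-fold over its group mates in both libraries. The 6 AP-1 target genes that passed the filter deviated by 0.61 and 0.22, with 3 higher, 3 lower and 0 called. Il6, among these 6, passed it only through ISRIB 1, so their median is not free of the filter. Timp1, also among them, had 77.7, 38.9 and 33.1 FPKM in ISRIB and 43.9, 44.6 and 33.2 FPKM in Control.

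**Figure D5:**
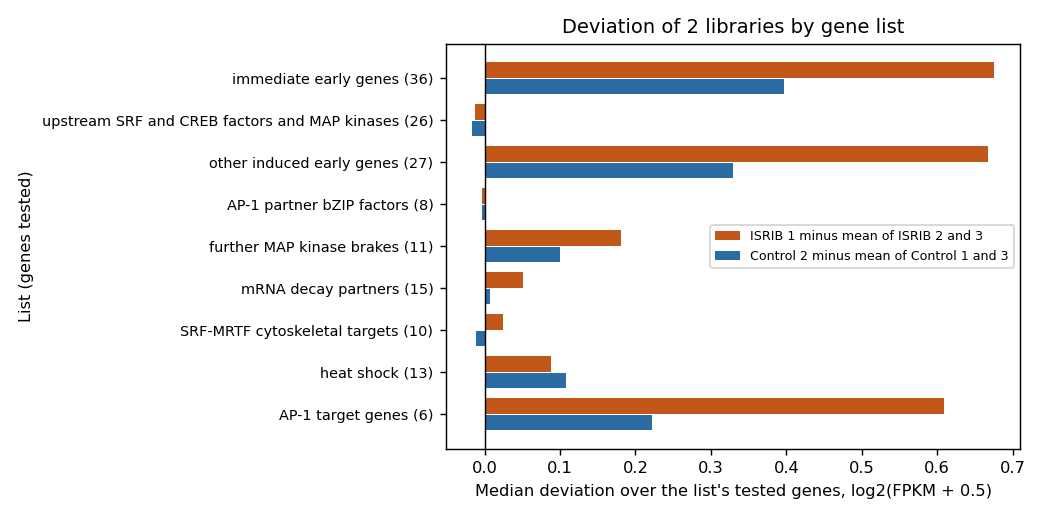
Median deviation, on the log2(FPKM + 0.5) scale, of ISRIB 1 from the mean of ISRIB 2 and 3 (upper bar) and of Control 2 from the mean of Control 1 and 3 (lower bar) over the tested genes of each list. The immediate early genes and the other induced early genes stand at 0.68 and 0.67 in ISRIB 1, while the upstream factors and the AP-1 partners lie near 0.

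Cell type markers were read beside the pattern, and their part in it was not tested. Red cell markers moved with ISRIB 1 and not with Control 2, with summed levels of 5 genes of 328, 75.8 and 72.4 FPKM in ISRIB and 67.9, 40.5 and 75.3 FPKM in Control. All 3 tested red cell genes were highest in ISRIB 1. Of the 4 tested immune markers 0 were highest in ISRIB 1, and the 7 in the table summed to 44.2, 49.5 and 46.0 FPKM in ISRIB and 42.6, 51.0 and 45.9 FPKM in Control. Endothelial markers summed to 120, 131 and 134 FPKM in ISRIB and 144, 143 and 156 FPKM in Control. Theca markers, 6 in the table, summed to 70.8, 76.7 and 77.5 FPKM in ISRIB and 106, 78.4 and 83.4 FPKM in Control. Of the 4 tested theca markers 1 followed the members, the cholesterol transporter gene Star, which had 13.1, 5.93 and 3.77 FPKM in ISRIB and 6.72, 7.65 and 4.30 FPKM in Control. Of the 6 stromal, 6 pericyte and 6 surface epithelium markers none was highest in ISRIB 1, and no listed marker was at 0 in every library. Antisense or convergent genes overlap exons of 9 members (Fosl1, Jun, Junb, Jund, Csrnp1, Zfp36, Zfp36l1, Dusp1 and Dusp5) in GENCODE M21, and without the strand setting of the counting their reads cannot be told apart.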

How the data were processed

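The authors deposited FPKM per gene, with 1 column per library. Tools named in the submitters' processing notes, without roles, are fastp, HISAT2, HTSeq, DESeq2 and R 3.2.0, with the build mm10. Sources used here give neither the annotation nor the strand setting. Sample titles gave the groups. Members and gene lists were chosen with earlier results of these data known.

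Because FPKM are no raw counts, limma 3.58.1 (R 4.3.3) was fitted to log2(FPKM + 0.5) with 2 groups and an intensity trend, two-sided, with Benjamini-Hochberg adjustment over the 12922 genes whose mean FPKM reached 1. Fold changes on this scale understate those of low genes. A deviation is a library's log2 value minus the mean of its group mates. Whole reads were recovered for 100% of 23977 genes above 0 in at least 2 libraries (tolerance 0.01 read), and exactly for 97.5% of 2971 genes in a test on simulated reads. For the ISRIB and Control comparison, simulated over 12922 genes, limma called 64 of 100 genes changed by 0.5 (log2), 95 of 100 changed by 1 and 5 unchanged genes. The simulated noise was drawn separately for each gene, without shifts that many genes share in 1 library. The members also had a larger median SE than all genes, so these shares need not hold for them. Replicates differed beyond sampling noise (chi-square per gene 8.93 to 23.1). The rule for named genes took the members with the 12 widest ranges, the 5 smallest p in each direction, and Fos, Jun, Junb, Egr1, Nr4a1, Ier2, Atf3 and Myc. Other genes were named after their values were seen. Alternatives were other pseudocounts, filters, scalings and models, a replicate block and left-out libraries.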

Additional observations from a re-analysis of the deposited data

How the results depend on the processing

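In limma 0 members were called in every alternative run. Over all genes, 5 higher and 3 lower passed with a mean FPKM of at least 5, 6 and 13 after TPM rescaling, 8 and 8 with array weights, and 40 and 80 with voom on recovered reads. Correlations of deviations between same-numbered libraries were −0.19, −0.09 and 0.19. The highest between any ISRIB and Control library was 0.35, for ISRIB 1 with Control 2. With 3 libraries per group, these values cannot show whether samples were paired. A fit with the replicate number as a block called 9 higher and 2 lower genes. With the mean FPKM of at least 5, 7 members deviated by over 1 in ISRIB 1, since fewer members were left. Removing the gene length trend left 1 member with ISRIB above Control. Without ISRIB 1 and Control 2 there were 14 members above without overlap (24.3% of all genes) and 3 below (22.4% of all genes). The cause of these shifts was not tested. The 190 member log2 fold changes recomputed in the 12 settings that kept all libraries had the same direction and side of the threshold. They were values of Fos, Fosl2, Jun, Junb, Jund, Egr1, Nr4a1, Nr4a2, Maff, Ier2, Ier3, Ier5l, Btg2, Dusp4, Gadd45b and Gadd45g only. Members with smaller changes, such as Egr2 (0.0086), Klf2 (0.014) and Btg1 (0.028), were not followed there.

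With single libraries left out, the median log2 fold change of the members was −0.09 to 0.31, the members above without overlap were 2 to 14 (14.6% to 19.6% of all genes) and those below 0 to 3 (15.7% to 18.2% of all genes). The log2 fold change was −0.22 to 0.91 for Btg2, −0.30 to 0.76 for Egr1, −0.083 to 0.90 for Fos, −0.12 to 0.40 for Ier2, −0.012 to 1.1 for Ier3, −0.11 to 0.26 for Jun, −0.38 to 0.70 for Junb, −0.078 to 1.17 for Nr4a1 and −0.11 to 0.76 for Nr4a2, in each case lowest without ISRIB 1. Junb was also at −0.0098 without Control 1. Dusp4 had −0.37 to 0.083, highest without Control 1, and −0.49 without ISRIB 1 and Control 2. The Poisson intervals of read numbers cover counting error only, the limma intervals come from the spread between libraries, and 3 libraries per group limit every comparison.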

Other observations

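Beyond the members, 69 of the 12922 genes tested lay over 1 above their group mates in ISRIB 1 on the log2 scale, 13 of them members, and 21 did so in Control 2, 6 of them members. Both libraries shared 19 of these genes, 13 of them not members. In the other 4 libraries 4 to 8 genes deviated as far. Some of the 69, among them Ptgs2, Has1 and Serpinb2, passed the filter on their mean only through ISRIB 1. The count for that library is thus not free of the filter. The genes furthest apart included the EGF-like ligands, named after their values were seen. Ereg, epiregulin, had 52.2, 3.42 and 1.33 FPKM in ISRIB 1, 2 and 3, against 0.693, 15.9 and 1.16 FPKM in Control 1, 2 and 3. Areg, amphiregulin, had 19.0, 1.96 and 1.21 FPKM in ISRIB and 0.566, 5.40 and 0.214 FPKM in Control. Ptgs2, the inducible cyclooxygenase, had 10.5, 0.565 and 0.137 FPKM in ISRIB and 0.135, 2.55 and 0.344 FPKM in Control.

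Other genes over 1 in ISRIB 1 were also named after their values were seen. Tnfaip6, a hyaluronan-binding protein, and Has2, hyaluronan synthase, were 5.45-fold and 2.95-fold over their group mates in ISRIB 1, and 2.63-fold and 1.83-fold in Control 2. The cytokine gene Il6 had 279, 9 and 2 reads in ISRIB and 3, 49 and 15 reads in Control, and passed the filter on its mean only through ISRIB 1. The chemokine gene Cxcl1 was 13.1-fold over its group mates in ISRIB 1 and 4.07-fold in Control 2. Serpinb2 and Il11 had larger plain folds in ISRIB 1, 61.4-fold and 23.7-fold, and were 2.67-fold and 5.05-fold in Control 2. The genes named here are only some of the 69. The globin gene Hbb-bs was 5.62-fold over its group mates in ISRIB 1 and 0.651-fold in Control 2, so it did not share the pattern.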
